A study of Mus musculus with 4 samples.

Results

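The 10 genes described here encode receptors of the immunoglobulin superfamily that restrain or assist lymphocyte activation, namely Pdcd1, Lag3, Btla, Ctla4, Tigit, Cd96, Pecam1, Icos, Cd28 and Cd226. They were chosen by name, with earlier results of these data known, from 26421 genes listed in either of the 2 read count tables. The table of experiment 1 held 9 of them, since Ctla4 had no row there, and that of experiment 2 held all 10. The study sequenced single αLPs (α-lymphoid progenitors), bone marrow cells sorted as Lin−CD127+FLT3−LPAM-1+. By the paper this gate holds early precursors and also ST2+ group 2 innate lymphoid cells (ILC2s). The cells came from C57BL/6 mice that were wild type (WT) or carried G3SEKO, a CRISPR-Cas9 deletion of the super-enhancers downstream of Gata3. Adult male and female mice were used, and G3SEKO is a deletion carried by the mouse line and not only by ILC progenitors. Cells of several mice were combined and marked by antibody hashtags against MHC class I, with 3 hashtags per genotype in experiment 1 and 1 per genotype in experiment 2. For the A0303 hashtag of experiment 2 the sample label lists it under WT, while the membership rule used here takes it as G3SEKO. Every difference between genotypes in experiment 2 thus goes against that label. In that experiment 5130 cells with the other hashtag, A0302, and 1159 with A0303 were kept. Il1rl1+ cells were 69.1% and 4.23% of them. The paper reports fewer G3SEKO than WT cells there, and nearly no ST2+ ILC2s in G3SEKO bone marrow. Experiment 1 gave no G3SEKO sum of Il1rl1+, Ccr6+ or Eomes+ cells, and genotypes are compared in these classes on experiment 2 alone.

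Receptors of this family sit on the surface of lymphocytes and bind ligands on neighbouring cells. PD-1, encoded by Pdcd1, CTLA-4, LAG-3, BTLA and TIGIT are inhibitory receptors, and CD28 and ICOS, which bind B7 family ligands, add a co-stimulatory signal to antigen receptor signalling. CD226, TIGIT and CD96 bind nectins and nectin-like molecules, with CD226 as the activating partner. PD-1 is also known as a surface marker of early innate lymphoid cell (ILC) progenitors, which express the transcription factor PLZF, encoded by Zbtb16, and ICOS is known on the ILC2 lineage, the helper ILCs that produce type 2 cytokines.

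Cells were divided by 5 genes into 7 classes, with a gene counted as present where ln(1 + reads per 10000) was at least 1. A cell with Il1rl1, which encodes the IL-33 receptor ST2, Ccr6 or Eomes alone of these 3 was named Il1rl1+, Ccr6+ or Eomes+. Such a cell could hold Zbtb16 and Bcl11b or lack them. The others were Zbtb16+Bcl11b−, Zbtb16+Bcl11b+ or Zbtb16−Bcl11b+, or held none of the 5 genes. Bcl11b encodes a factor needed for ILC2 development, Ccr6 a chemokine receptor of lymphoid tissue inducer cells, and Eomes a T-box factor of NK cells. None of the 10 receptors was used to divide the cells. In WT, the Zbtb16+Bcl11b− class held 55 cells in experiment 1 and 147 in experiment 2, the Zbtb16+Bcl11b+ class 33 and 69, the Zbtb16−Bcl11b+ class 60 and 371, the Il1rl1+ class 424 and 3546, and the Eomes+ class 25 and 25. The Ccr6+ class could be summed in experiment 2 alone, with 38 cells. In G3SEKO mice, experiment 1 gave only 8, 9 and 10 cells in the first 3 classes and 1 Il1rl1+ cell, against 253, 102, 244 and 49 cells in experiment 2. The marker lists, which include gate genes, did not all follow the class names. The 4 markers of ILC2 commitment, Il17rb among them, summed to 2930 and 3281 CPM in WT Zbtb16+Bcl11b− cells. They summed to 2752 and 2452 CPM in WT Il1rl1+ cells. In WT Eomes+ cells markers of ILC progenitors summed to 2065 and 3582 CPM, and those of NK cells and ILC1s to 2550 and 1075 CPM. Tcf7 and Il17rb, 1 gene from each of 2 lists, did differ between the Zbtb16+Bcl11b− and Il1rl1+ classes. Tcf7, a factor of early ILC progenitors, reached 1791 and 2040 CPM in WT Zbtb16+Bcl11b− cells against 56.1 and 42.8 CPM in WT Il1rl1+ cells, and Il17rb, which encodes the IL-25 receptor of ILC2s, stood at 80.2 and 171 CPM against 405.6 and 564.9 CPM.

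A level is the number of reads of the gene per 1000000 reads of the summed cells of a class (CPM), and each experiment gave 1 sum per class and genotype. The values are reads and not molecules, since no molecular identifiers were counted, so exact intervals given for shares of cells cover counting error only. Levels were compared for 1 gene across classes and never between genes, because the reads do not cover transcripts evenly. The median depth of the kept cells was 396198 reads in WT and 509911 in G3SEKO of experiment 1, and 29677 and 42814 reads in experiment 2. Of the cell numbers used as barcodes, 5 occurred in both experiments. Bulk differences of a summed class cannot tell apart fewer expressing cells from fewer transcripts per cell, so the share of cells at or above 1 on the ln scale is given where it bears on a result.

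Sequence upstream of the transcription start was in the RefSeq promoter table for 5 of the 10 genes. The 250 bases before the start of Pdcd1 are shown because most results below turn on this gene. They lie on the minus strand of chromosome 1 at chr1:94052554-94052803 in GRCm38.p6, directly before the gene body, which spans 94038305 to 94052553.
Pdcd1: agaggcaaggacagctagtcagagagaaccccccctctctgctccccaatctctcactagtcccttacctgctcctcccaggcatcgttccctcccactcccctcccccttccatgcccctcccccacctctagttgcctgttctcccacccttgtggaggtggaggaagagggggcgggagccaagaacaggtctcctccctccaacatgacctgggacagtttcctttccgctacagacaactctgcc
No base is in capitals because neither strand of this stretch held the letters searched for. For GATA factors these were AGATAA, its close variant AGATAG, the related form TGATAA and its close variant TGATAG. For RUNX factors they were TGTGGT with the variant form TGCGGT, and for TCF and LEF factors CTTTGAT with the variant form CTTTGTT. No form of one factor lies within a form of another. Over 27025 promoter windows, 27.1% held the GATA letters, 18.7% the RUNX letters and 8.04% the TCF letters. A window without these letters says nothing about binding elsewhere near the gene. Icos, Cd28 and Ctla4 are neighbours on chromosome 1 (Icos at 60977927 to 61000320, Ctla4 at 60887000 to 60915832 and Cd28 at 60716800 to 60773359, plus strand, GRCm38), and their levels are described apart below.

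Pdcd1 was high in Zbtb16+ cells and low in Il1rl1+ cells of WT mice. Its level was 241.7 CPM in experiment 1 and 459.2 CPM in experiment 2 in Zbtb16+Bcl11b− cells, and 509.2 and 453.1 CPM in Zbtb16+Bcl11b+ cells. It was 124.9 and 52.7 CPM in Zbtb16−Bcl11b+ cells and 9.09 and 10.2 CPM in Il1rl1+ cells. The sums of both Zbtb16+ classes lay above those of the Zbtb16−Bcl11b+ class, which in turn lay above those of the Il1rl1+ class, with no overlap, whereas the 2 Zbtb16+ classes overlapped each other. Cells without any of the 5 gate genes had 60.2 and 44.6 CPM, Eomes+ cells 39 and 293 CPM, and Ccr6+ cells 86.2 CPM in experiment 2.

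The share of WT cells with Pdcd1 at or above 1 was 43.6% and 45.6% in the Zbtb16+Bcl11b− class, and 75.8% and 47.8% in the Zbtb16+Bcl11b+ class. It was 15% (exact 95% interval 7.1 to 26.6) and 5.12% (3.11 to 7.88) in Zbtb16−Bcl11b+ cells, and 0.943% (4 of 424 cells) and 1.44% (51 of 3546 cells) in Il1rl1+ cells. When every cell was thinned at random to 1 fixed number of reads, the lowest depth accepted in experiment 2, the shares were 40% and 42.9% in the Zbtb16+Bcl11b− class and 0.943% and 1.07% in the Il1rl1+ class, so the classes differed as much at equal depth. The median depth was 629623 and 46481 reads in the first of these classes and 370423 and 31151 reads in the second. The Zbtb16−Bcl11b+ share stood above the Il1rl1+ share in both experiments, and what free RNA adds to either was not tested. Within experiment 1, the 3 WT hashtags gave 218.6, 260.4 and 244.1 CPM in Zbtb16+Bcl11b− cells, 185.3, 88.9 and 45.8 CPM in Zbtb16−Bcl11b+ cells and 16.1, 0.949 and 9.52 CPM in Il1rl1+ cells, so the order of these 3 classes was the same within each hashtag.

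**Figure D1:**
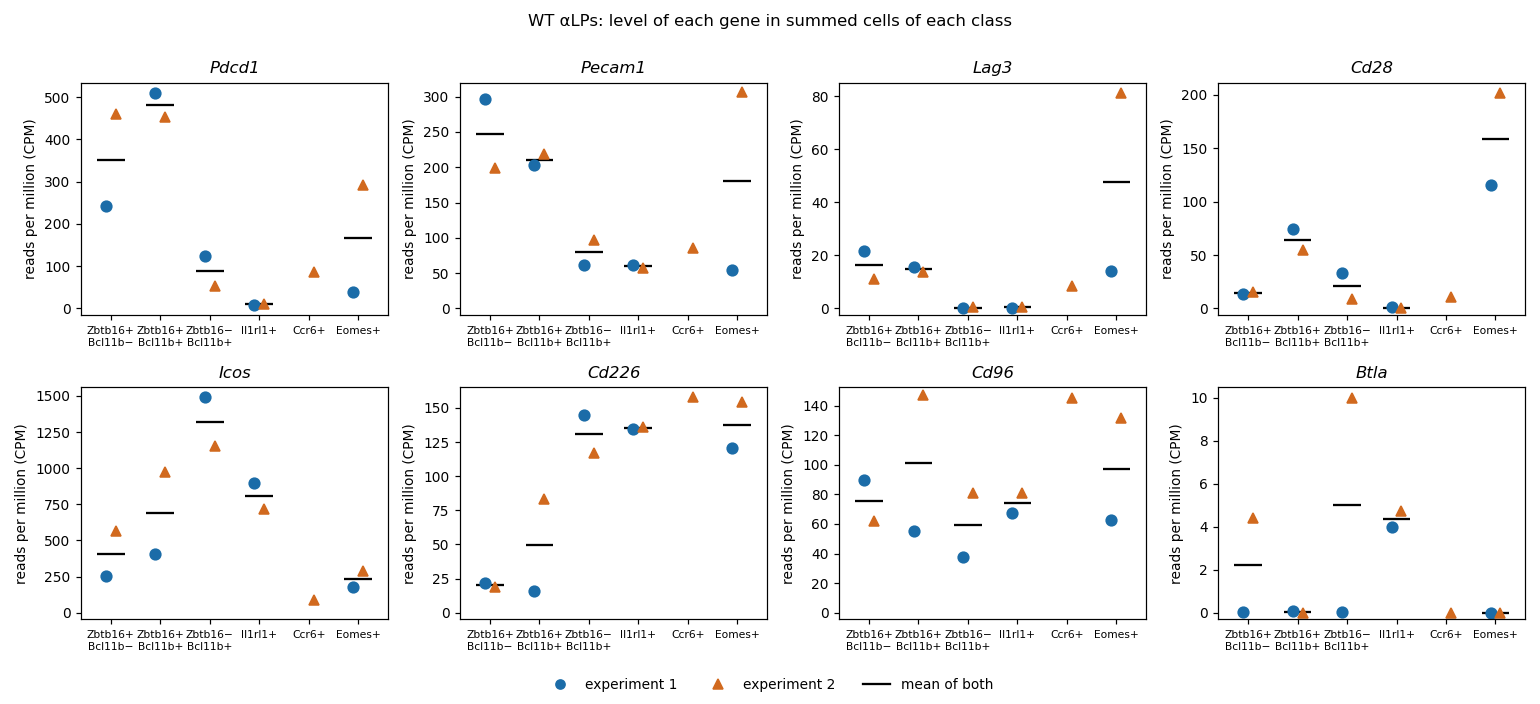
Level in CPM (linear axes) of 8 receptor genes in summed WT αLPs of each class, with 1 point per experiment and a bar at the mean where both experiments gave a sum. Pdcd1 lies between 241.7 and 509.2 CPM in the Zbtb16+ classes and at 9.09 and 10.2 CPM in Il1rl1+ cells, while Cd226 is lowest in the Zbtb16+ classes.

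Lag3, whose product binds MHC class II and restrains T cells, was low everywhere but had a similar order. It was 21.6 and 11.2 CPM in WT Zbtb16+Bcl11b− cells and 15.7 and 13.8 CPM in Zbtb16+Bcl11b+ cells, against 0.125 and 0.563 CPM in Zbtb16−Bcl11b+ cells and 0.251 and 0.581 CPM in Il1rl1+ cells. The groups did not overlap, but few cells carried the reads, with 11 of 55 and 6 of 147 Zbtb16+Bcl11b− cells holding any Lag3 read. The order did not hold within each hashtag of experiment 1. The 3 WT hashtags gave 39.8, 0.0588 and 32.5 CPM in Zbtb16+Bcl11b− cells against 0.264, 0.289 and 0.198 CPM in Il1rl1+ cells, where the value of 0.0588 is 1 read in 22 cells. Eomes+ cells had 14.1 CPM in experiment 1 and 81.1 CPM in experiment 2, where 2 of 25 cells held all of its reads.

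Pecam1, which encodes CD31, an adhesion receptor with inhibitory motifs in its cytoplasmic tail, was 296.3 and 198.7 CPM in WT Zbtb16+Bcl11b− cells. It was 203.2 and 218.4 CPM in Zbtb16+Bcl11b+ cells, 62.3 and 97 CPM in Zbtb16−Bcl11b+ cells and 61.7 and 57.8 CPM in Il1rl1+ cells. The Zbtb16+ sums lay above the others named here without overlap, while Eomes+ cells spread from 53.8 to 307.2 CPM. Pecam1 is abundant on endothelial cells and platelets. Of 6 markers chosen for endothelial cells and megakaryocytes 4 were listed, and their summed level was between 0 and 13.3 CPM in every class and genotype of the 24 sums, with no more than 4.65 and 13.3 CPM in the WT Zbtb16+Bcl11b− class. Their part in the Pecam1 level was not tested.

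Cd96, whose product binds the nectin-like receptor CD155, showed no order across classes. It was 89.4 and 62.2 CPM in WT Zbtb16+Bcl11b− cells, 54.9 and 147.2 CPM in Zbtb16+Bcl11b+ cells, 37.7 and 81.2 CPM in Zbtb16−Bcl11b+ cells and 67.6 and 81.2 CPM in Il1rl1+ cells. No neighbouring classes in the order of its levels were separated in both experiments. Ccr6+ cells had 145.3 CPM in experiment 2 and Eomes+ cells 62.8 and 131.9 CPM.

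Btla, Tigit and Ctla4, which restrain T cells, were close to absent from WT αLPs. Btla, whose product binds HVEM, reached 3.96 and 4.72 CPM in Il1rl1+ cells and 0.0312 and 10 CPM in Zbtb16−Bcl11b+ cells. Of the 3546 WT Il1rl1+ cells of experiment 2, 34 held any Btla read. Tigit did not exceed 0.56 CPM in any WT sum. Ctla4, with values in experiment 2 only, had 34 reads in 6 of the 3546 Il1rl1+ cells, 2 reads in 1 Zbtb16−Bcl11b+ cell and no read in the other WT classes, which for 147 Zbtb16+Bcl11b− cells allows a level of up to 0.349 CPM from a floor of 3 reads.

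Icos was present in every class and highest in Zbtb16−Bcl11b+ cells. Its level in WT was 254.4 and 563.8 CPM in Zbtb16+Bcl11b− cells, 404 and 974.9 CPM in Zbtb16+Bcl11b+ cells, 1492 and 1151 CPM in Zbtb16−Bcl11b+ cells and 897.3 and 717.9 CPM in Il1rl1+ cells. The Zbtb16−Bcl11b+ sums lay above all others, and the Il1rl1+ sums above those of the Zbtb16+Bcl11b− class, while the Zbtb16+Bcl11b+ class overlapped both of the latter. Ccr6+ cells were lowest with 84.6 CPM in experiment 2, and Eomes+ cells had 180 and 291.1 CPM. At or above 1 were 66.7% and 52.6% of Zbtb16−Bcl11b+ cells, 68.2% and 49.8% of Il1rl1+ cells and 27.3% and 38.1% of Zbtb16+Bcl11b− cells. The lowest share was that of the Ccr6+ cells, 15.8% (exact 95% interval 6.02 to 31.3). Within single Zbtb16−Bcl11b+ cells of experiment 2, Icos was at or above 1 in 16 of the 19 Pdcd1-positive cells (84.2%) and in 50.9% of the others, whereas in experiment 1 it was so in 5 of 9 (55.6%) and in 68.6% of the others. Thus the co-occurrence of these receptors went in opposite directions in the 2 experiments.

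Cd226, which encodes the activating receptor DNAM-1, was low in both Zbtb16+ classes and higher in the others. It was 21.9 and 18.5 CPM in WT Zbtb16+Bcl11b− cells, 16 and 82.9 CPM in Zbtb16+Bcl11b+ cells, 145 and 117.2 CPM in Zbtb16−Bcl11b+ cells and 134.3 and 135.8 CPM in Il1rl1+ cells. Eomes+ cells had 120.4 and 154.2 CPM, Ccr6+ cells 158.3 CPM, and cells without the gate genes 151.4 and 127.4 CPM. The Zbtb16+ sums were the lowest and the Ccr6+ sum the highest, and the other classes overlapped each other. In Ccr6+ cells Cd226 was thus high where Icos was lowest. Within the 3 WT hashtags of experiment 1, Il1rl1+ cells had 154.7, 130.9 and 114.9 CPM, above the Zbtb16+Bcl11b− cells with 25.1, 1.71 and 55.3 CPM in each, whereas Eomes+ cells were above them in 2 of 3 and at 6.18 CPM in the last. The share of cells at or above 1 was 3.64% and 4.76% in Zbtb16+Bcl11b− cells against 25.2% and 18% in Il1rl1+ cells, and 1.82% and 4.08% against 17.9% and 15.7% after thinning.

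Cd28, the co-stimulatory receptor of T cells, was highest in Eomes+ cells with 115.6 and 201.3 CPM. It was 74.1 and 54.4 CPM in Zbtb16+Bcl11b+ cells, 14 and 15 CPM in Zbtb16+Bcl11b− cells, 33.4 and 8.63 CPM in Zbtb16−Bcl11b+ cells and 1.39 and 0.23 CPM in Il1rl1+ cells. The Eomes+ sums were separated from the Zbtb16+Bcl11b+ sums, and these from all the lower classes. Within the 3 WT hashtags of experiment 1 the Eomes+ cells were highest in each, with 67.4, 290.5 and 65.4 CPM, but the Zbtb16+Bcl11b+ cells, with 16.4, 127.4 and 58.7 CPM, were above the Zbtb16−Bcl11b+ cells, with 40.9, 11.5 and 60 CPM, in 1 of 3. The Eomes+ class also held more of the T-cell genes Cd3d, with 159.5 and 27.9 CPM against 1.4 and 2.9 CPM in Zbtb16+Bcl11b− cells, and Cd3e, with 121.9 and 10.5 CPM against 0.4 and 0.1 CPM. Trac, which encodes the constant part of the T-cell receptor α chain, was at 143.2 CPM in Eomes+ cells of experiment 1 and at 0 in experiment 2. The summed level of the 11 T-lineage markers was 2246 to 2492 CPM in Eomes+ cells and 2588 to 3149 CPM in Zbtb16+Bcl11b− cells, mostly from Trbc1. The 5 markers of ILC progenitors summed to 2065 and 3582 CPM in WT Eomes+ cells, which were taken whatever their Zbtb16. The sort removed cells with surface CD3e, CD4, CD5 and CD8. The part of T-lineage cells and of ILC progenitors in the Cd28 level was not tested.

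To ask whether these differences exceeded the spread between the sums, all 24 sums of at least 5 cells were fitted together in edgeR's quasi-likelihood model with experiment as a term, on 20701 genes, with Benjamini-Hochberg adjustment over all genes. All 10 receptors passed the filter on low counts. Relative to WT Zbtb16+Bcl11b− cells, none of the 10 was called at an adjusted p under 0.05 in any class. Against these 0 of 10, the share of all genes called was 0.00483% in Zbtb16+Bcl11b+ cells, 0.00966% in Zbtb16−Bcl11b+ cells, 0.145% in Il1rl1+ cells, 0.0676% in Ccr6+ cells and 0% in Eomes+ cells. The Ccr6+ class had 1 sum, which was assumed to vary like the other groups, and the median of all genes was −0.82 there on the log2 scale. Without adjustment p was under 0.05 for 0, 4, 6, 2 and 2 of the 10 receptors in these classes, against 3.65%, 5.46%, 6.82%, 7.35% and 6.92% of all genes. In Il1rl1+ cells these 6 were Pdcd1, Lag3, Cd28, Pecam1, Icos and Cd226. Their fitted log2 differences were −5.05 ± 1.34 (SE, adjusted p = 0.345) for Pdcd1, −2.01 ± 0.615 (0.448) for Pecam1 and 2.78 ± 0.929 (0.529) for Cd226. Among sums of at least 20 cells, an alternative added after seeing the data that leaves out all 4 G3SEKO sums of experiment 1, Pdcd1 alone of the 10 was called, lower by −5.10 ± 0.86 (0.0438), against 0.679% of all genes. It was also called with the G3SEKO sums of experiment 2 left out instead, at −5.11 (0.0427). One G3SEKO sum of 8 cells in experiment 1, without gate genes, stood apart with 82500 CPM of 6 myeloid markers against no more than 27.2 CPM in any other sum. The median log2 difference of the 10 receptors was −0.01, and that of all genes 0.10.

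The same model on cells thinned to that equal depth had a smaller spread between sums and called several of these receptors, with the same direction. It tested 11890 genes and 8 of the 10 receptors, since Ctla4 and Tigit did not pass the filter. In Il1rl1+ against Zbtb16+Bcl11b− cells of WT mice, 5 of the 8 were called, where 2.88% of all genes were. Members such as Pdcd1 and Pecam1 were already reported by stage from these cells in the paper, so these shares are no test of an excess. Pdcd1 was lower by a log2 difference of −5.24 ± 0.601 (SE, adjusted p = 1.47e-08), Cd28 by −5.81 ± 1.23 (0.00199), Lag3 by −6.00 ± 1.36 (0.00464) and Pecam1 by −1.87 ± 0.528 (0.0357). Cd226 was higher by 2.58 ± 0.621 (0.00897). Few thinned Zbtb16+Bcl11b− cells held a Lag3 read, 3 of 55 and 4 of 147, or a Cd28 read, 6 of 55 and 8 of 147. Icos, at 1.07 ± 0.351 (0.0967) in this fit, and Cd96 were not called. Hence the 4 receptors that were lower include both inhibitory and co-stimulatory members.

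In the Zbtb16−Bcl11b+ class 3 of 8 were called on thinned cells, against 0.732% of all genes. Pdcd1 was lower by −2.68 ± 0.563 (adjusted p = 0.00621), while Icos was higher by 1.48 ± 0.355 (0.0238) and Cd226 by 2.61 ± 0.633 (0.0265). Thus Icos and Cd226 were higher where Pdcd1 was lower, in cells with Bcl11b and without Il1rl1. In the Ccr6+ class, which had 1 WT sum of 38 cells and so no replicate in any of these fits, Icos was lower by a log2 difference of −2.66. No receptor of the 8 was called in Zbtb16+Bcl11b+ cells, where 0.0252% of all genes were, or in Eomes+ cells, where 0.227% were. With DESeq2 on all reads, Pdcd1, Cd28 and Lag3 were called in Il1rl1+ cells against 1.87% of all genes, Lag3 in Zbtb16−Bcl11b+ cells against 0.903%, and Icos in Ccr6+ cells against 3.14%.

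**Figure D2:**
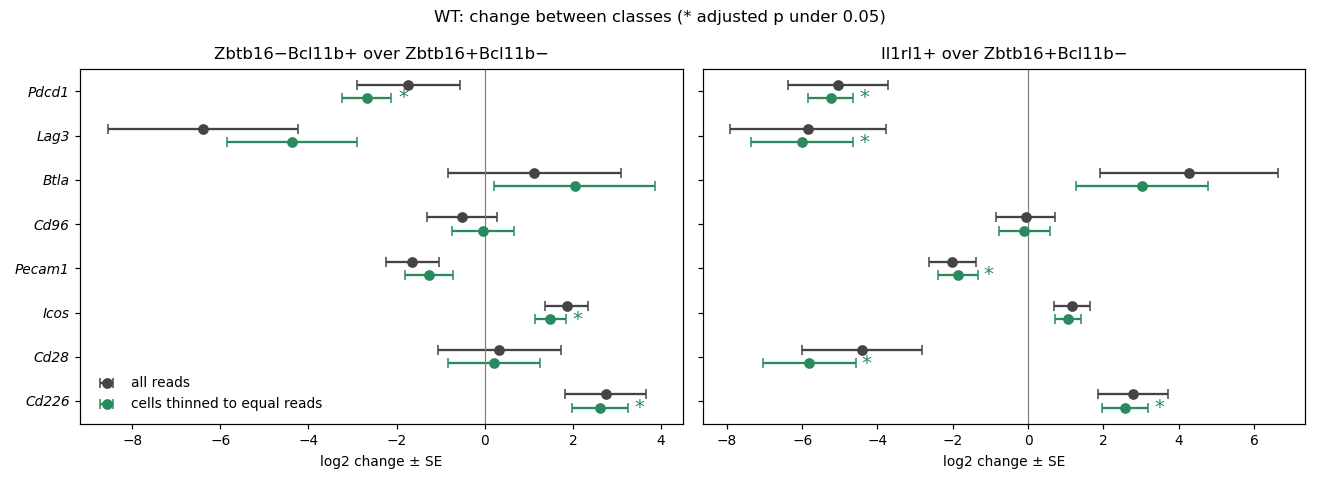
Fitted log2 difference of 8 receptor genes from WT Zbtb16+Bcl11b− cells, in the Zbtb16−Bcl11b+ class (left) and the Il1rl1+ class (right), on all reads and on cells thinned to equal depth, with bars of 1 SE and a star where the adjusted p was under 0.05. In the right panel the thinned Pdcd1 point lies at −5.24 and that of Cd226 at 2.58, and no point on all reads has a star.

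G3SEKO mice had few Il1rl1+ cells, with 4.23% of the kept G3SEKO cells in experiment 2 against 69.1% of WT cells, and 2.33% (1 cell) against 62.3% in experiment 1. The level of Gata3, the gene next to the deleted region, was 296.1 CPM in the 49 G3SEKO Il1rl1+ cells of experiment 2 against 1387 and 1039 CPM in WT. It was 609 and 481.2 CPM against 1499 and 1061 CPM in Zbtb16−Bcl11b+ cells, 945.7 and 571.9 against 1129 and 890.1 CPM in Zbtb16+Bcl11b+ cells, and 917.3 and 460.9 against 665.8 and 721.5 CPM in Zbtb16+Bcl11b− cells. Hence Gata3 was below WT in every pair of sums apart from the Zbtb16+Bcl11b− class of experiment 1.

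Pdcd1 in the Zbtb16+ classes of G3SEKO mice did not differ from WT in the same direction in both experiments. It was 525.1 CPM in experiment 1 and 412.1 CPM in experiment 2 in Zbtb16+Bcl11b− cells, and 497.5 and 657.1 CPM in Zbtb16+Bcl11b+ cells. The log2 ratio to WT had opposite signs in the 2 experiments in both classes, with 1.12 and −0.16 in the first and −0.03 and 0.54 in the second.

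In the Zbtb16−Bcl11b+ and Il1rl1+ classes, G3SEKO cells had a higher Pdcd1 level than WT cells. In Zbtb16−Bcl11b+ cells the level was 180.9 and 304.1 CPM against 124.9 and 52.7 CPM in WT, and both G3SEKO sums lay above both WT sums, with log2 ratios of 0.53 and 2.53. In experiment 1, however, 73.8% of the G3SEKO reads came from 1 of 10 cells. Of the 3 WT hashtags of that experiment, 1 lay above the G3SEKO sum, with 185.3 CPM. The share of cells at or above 1 there was 30% (3 of 10 cells, exact 95% interval 6.67 to 65.3) against 15% in WT. In experiment 2 the share of cells at or above 1 was 29.9% (73 of 244 cells, exact 95% interval 24.2 to 36.1) against 5.12% in WT, and 25% against 4.31% after thinning. The median depths were 47466 and 30268 reads. In this class too, markers of other cell types were higher in G3SEKO than in WT. The summed T-lineage markers were 4584 and 2759 CPM against 2578 and 1184 CPM, those of ILC progenitors 1974 and 1989 CPM against 1495 and 583.6 CPM, and those of LTi cells and ILC3s 739.1 and 343.2 CPM against no more than 137.6 CPM. The markers of NK cells and ILC1s were 452.5 and 34.6 CPM against 44.4 and 31.1 CPM. Their part in the Pdcd1 level was not tested.

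In Il1rl1+ cells of experiment 2, Pdcd1 was 167.3 CPM in G3SEKO against 10.2 CPM in WT, a log2 ratio of 4.04, and 12 of 49 cells (24.5%, exact 95% interval 13.3 to 38.9) stood at or above 1 against 51 of 3546 (1.44%). After thinning the shares were 22.4% and 1.07%, and the median depths 44385 and 31151 reads. Experiment 1 had 1 G3SEKO Il1rl1+ cell, which held no Pdcd1 read and cannot be compared. In the other classes of experiment 2, Pdcd1 was 26.3 CPM in G3SEKO Ccr6+ cells against 86.2 CPM in WT, 191.4 against 293 CPM in Eomes+ cells, and 217.4 against 44.6 CPM in cells without the gate genes. In the last of these classes experiment 1 went the other way, with 1.32 CPM in 8 G3SEKO cells against 60.2 CPM in WT, and these 8 cells held 82500 CPM of myeloid markers. The markers of ILC progenitors were 2226 CPM against 450.8 CPM in the same class of experiment 2, those of the T lineage 1934 against 794.1 CPM and those of NK cells and ILC1s 450.4 against 34.3 CPM, and their part was not tested. Thus a higher level was not found in every class or experiment.

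These 12 Pdcd1-positive G3SEKO Il1rl1+ cells had a median depth of 54767 reads against 39786 in the other 37, and a median Il1rl1 value of 1.44 against 1.88 on the ln scale, which lay closer to the gate limit than the 2.53 of WT Il1rl1+ cells without Pdcd1. Pdcd1 was 566.4 CPM in these 12 cells and 3.32 CPM in the other 37. Zbtb16 was at or above 1 in 12 of the 49 G3SEKO Il1rl1+ cells (24.5%) and in 148 of the 3546 WT cells (4.17%). Among cells with Zbtb16 below 1, Pdcd1 was 96.4 CPM in G3SEKO against 8.8 CPM in WT, and among those with Zbtb16 it was 310.2 against 40.7 CPM. Of the G3SEKO Il1rl1+ cells, 7 of the 12 with Zbtb16 at or above 1 were Pdcd1-positive, against 5 of the 37 with Zbtb16 below 1. A value below 1 does not mean that Zbtb16 was absent. The part of Zbtb16+ cells in the higher Pdcd1 level was not tested. Markers of other cell types moved with the Pdcd1 level. In the G3SEKO sum the 5 markers of ILC progenitors added up to 2408 CPM against 310.5 and 194.6 CPM in WT, and 5 of 5 had reads. The 11 T-lineage markers reached 2172 CPM against 739.5 and 645.9 CPM, with reads for 8 and with Cd3g, Cd4 and Cd8a at 0, and Trac was 109.9 CPM against 1.1 and 1.3 CPM. The 5 markers of LTi cells and ILC3s reached 316.5 CPM against 55.9 and 42.4 CPM, and the 6 of NK cells and ILC1s 140.2 CPM against 21.1 and 19.1 CPM. The 5 markers of ST2+ ILC2s, which include Il1rl1 itself, were lower at 721.7 CPM against 1616 and 1967 CPM, with Il13 at 0. Their part in the Pdcd1 level was not tested.

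**Figure D3:**
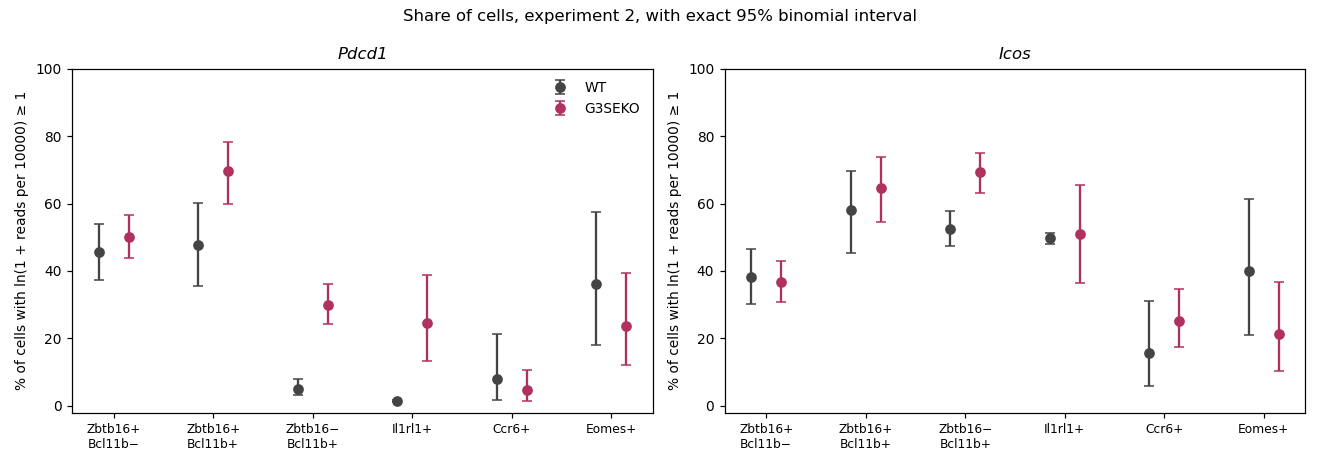
Share of cells in percent with ln(1 + reads per 10000) at or above 1 for Pdcd1 (left) and Icos (right) in experiment 2, by class and genotype, with exact 95% binomial intervals that cover counting error only. For Pdcd1 the G3SEKO shares are 29.9% and 24.5% in the Zbtb16−Bcl11b+ and Il1rl1+ classes, against 5.12% and 1.44% in WT.

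The other inhibitory receptors differed less, or rested on few cells. Pecam1 was 77.7 and 178.7 CPM in G3SEKO Zbtb16−Bcl11b+ cells against 62.3 and 97 CPM in WT, log2 ratios of 0.32 and 0.88 with overlapping groups, and 159 CPM in G3SEKO Il1rl1+ cells against 61.7 and 57.8 CPM. In Zbtb16+Bcl11b− cells it was 187.8 and 247.1 CPM, overlapping WT. Cd96 was 16.1 and 39.7 CPM in G3SEKO Zbtb16+Bcl11b+ cells against 54.9 and 147.2 CPM in WT, lower without overlap, with log2 ratios of −1.77 and −1.88, and 94.7% of the G3SEKO reads of experiment 1 came from 1 of 9 cells. In Il1rl1+ cells Cd96 was 69.9 CPM against 67.6 and 81.2 CPM.

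Lag3 was 8.26 and 20.6 CPM in G3SEKO Zbtb16+Bcl11b− cells, and 0 and 11.2 CPM in Zbtb16+Bcl11b+ cells. The 0 among 9 cells of experiment 1 set against 15.7 CPM in WT makes a level at least 42.7-fold lower from a floor of 3 reads, which the second experiment did not show. In Zbtb16−Bcl11b+ cells it was 0.342 and 9 CPM against 0.125 and 0.563 CPM, with 78% of the reads of experiment 2 in 1 cell. Btla, at 9.89 CPM in G3SEKO Zbtb16−Bcl11b+ cells of experiment 2 against 10 CPM in WT, had a higher level in G3SEKO Ccr6+ cells of that experiment, with 50.9 CPM where WT had no read. Tigit had at most 5.48 CPM in any G3SEKO sum, from 32 reads of 1 cell. Ctla4 was found in 3 of 253 G3SEKO Zbtb16+Bcl11b− cells and 6 of 244 Zbtb16−Bcl11b+ cells, with 2.66 and 1.77 CPM.

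Of the co-stimulatory receptors, Icos overlapped its WT levels in the 3 classes with sums of both genotypes in both experiments that are named by Zbtb16 and Bcl11b. It was 266 and 344.9 CPM in Zbtb16+Bcl11b− cells, 736.4 and 880.4 CPM in Zbtb16+Bcl11b+ cells and 1430 and 1472 CPM in Zbtb16−Bcl11b+ cells, each overlapping WT. In Il1rl1+ cells it was 751.5 CPM in experiment 2, between the WT values of 717.9 and 897.3 CPM. In experiment 2 it was 178.1 CPM against 84.6 CPM in Ccr6+ cells and 140.9 against 291.1 CPM in Eomes+ cells. Cd226 was 37.2 and 43.9 CPM in Zbtb16+Bcl11b− cells, above both WT sums, but 98.6% of the G3SEKO reads of experiment 1 came from 1 of 8 cells. It was 5.02 and 96 CPM against 16 and 82.9 CPM in Zbtb16+Bcl11b+ cells, lower in experiment 1 and higher in experiment 2, and 143.1 and 233.5 CPM against 145 and 117.2 CPM in Zbtb16−Bcl11b+ cells. In Il1rl1+ cells it was 349.1 CPM against 134.3 and 135.8 CPM, with 22 of 49 cells (44.9%) at or above 1 against 18% in WT. Cd28 was 49.8 and 19.5 CPM in Zbtb16+Bcl11b− cells, where a single cell held all of the reads in experiment 1, 0.49 and 18.5 CPM against 74.1 and 54.4 CPM in Zbtb16+Bcl11b+ cells, and 0 CPM in Il1rl1+ cells.

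**Figure D4:**
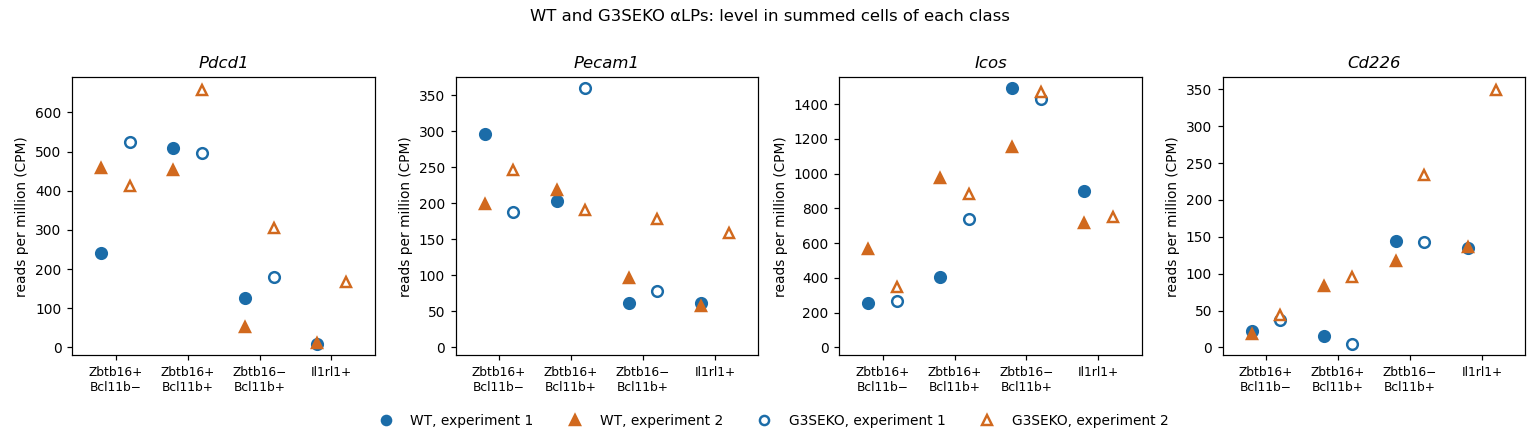
Level in CPM of Pdcd1, Pecam1, Icos and Cd226 in summed WT (filled) and G3SEKO (open) cells of 4 classes, with 1 point per experiment and no G3SEKO Il1rl1+ sum in experiment 1. For Pdcd1 the G3SEKO points lie above WT in the Zbtb16−Bcl11b+ and Il1rl1+ classes and overlap WT in the Zbtb16+ classes.

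In the fit on all reads, none of the 10 receptors was called between G3SEKO and WT. Against these 0 of 10, the share of all genes called was 0% in Zbtb16+Bcl11b−, 0% in Zbtb16+Bcl11b+, 0% in Zbtb16−Bcl11b+ and 0.00483% in Il1rl1+ cells. Without adjustment p was under 0.05 for 0, 1 (Cd96), 1 (Tigit) and 1 (Pdcd1) of the 10 receptors by edgeR, against 2.99%, 4.67%, 4.06% and 4.45% of all genes, so that 1 of 10 is near the share of all genes. DESeq2 called 0 of 10 in each class, against 0.126%, 0.377%, 0.188% and 1.25% of all genes. Pdcd1 in Il1rl1+ cells had a fitted log2 difference of 3.74 ± 1.39 (SE, adjusted p = 0.977) and Cd96 in Zbtb16+Bcl11b+ cells of −1.82 ± 0.821 (0.956). At a gate limit of 1.5 the Pdcd1 difference was 3.34 ± 1.55 (0.851), with an unadjusted p of 0.05 after rounding, and no receptor had an unadjusted p under 0.05 in Il1rl1+ cells. With the G3SEKO sums of experiment 2 left out, Cd28 in Zbtb16+Bcl11b+ cells was called, at −7.55 (adjusted p = 0.0446) and against 3.05% of all genes, from a lone sum of 9 cells with 4 reads that was assumed to vary like the other groups, against −2.41 (0.956) with them. On thinned cells Pdcd1 in Il1rl1+ cells was called, at 4.84 ± 0.648 (adjusted p = 2.14e-06), as 1 of 8 receptors tested against 0.572% of all genes. This value rests on the 1 G3SEKO sum of experiment 2, which was assumed to vary like the other groups, and without that sum no test could be made. The receptors called on thinned cells in the Zbtb16+Bcl11b−, Zbtb16+Bcl11b+ and Zbtb16−Bcl11b+ classes were 0 of 8 each, against 0%, 0.00841% and 0.0589% of all genes.

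The difference of the Pdcd1 change between the Il1rl1+ and Zbtb16+Bcl11b− classes was itself tested. On all reads it was 3.15 ± 1.81 on the log2 scale (adjusted p = 1), with 0 of 10 receptors and 0% of all genes called. On thinned cells it was 4.61 ± 0.827 (adjusted p = 0.00138), 1 of 8 receptors against 0.227% of all genes. The G3SEKO Il1rl1+ arm of this test is also the 1 sum of 49 cells in experiment 2, so no replicate bears on it.

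Of 5 related lists with 41 genes, the members that were listed and passed the filter were followed in the same fits. On all reads these were 6 of 8 ligands of the B7 family and HVEM, 7 of 7 genes of the nectin axis, 9 of 9 of the SLAM and CD2 family, 6 of 7 other inhibitory receptors and 10 of 10 signalling partners, and none was called in any comparison. Of 8 ligands of the B7 family and HVEM, 7 were listed and 3 tested on thinned cells, and 2 of these were higher in Il1rl1+ than in Zbtb16+Bcl11b− cells of WT mice, against 2.88% of all genes called in this comparison. Icosl, which encodes the ICOS ligand, was 0.714 and 0.93 CPM in Zbtb16+Bcl11b− cells, 4.37 and 38.5 CPM in Zbtb16−Bcl11b+ cells and 45.4 and 63 CPM in Il1rl1+ cells, with a log2 difference of 4.50 ± 1.17 (adjusted p = 0.0182). Pdcd1lg2, which encodes the PD-1 ligand PD-L2, was 0.0738 and 0.814 CPM, 6.37 and 34.4 CPM and 29.4 and 28 CPM in the same classes, with a log2 difference of 5.82 ± 1.55 (0.023). Thus transcripts of a PD-1 ligand were found in the class with the lowest Pdcd1 level, and those of the ICOS ligand in a class that expressed Icos.

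Of the 9 genes of the SLAM and CD2 family tested on thinned cells 1 was lower in Il1rl1+ cells, again against 2.88% of all genes, as for the counts of the lists that follow. This was Cd244a, which encodes the receptor 2B4, with 32.1 and 43.7 CPM in Zbtb16+Bcl11b− cells and 0.215 and 0.284 CPM in Il1rl1+ cells, and a log2 difference of −6.16 ± 1.35 (adjusted p = 0.00293). Ceacam1, an inhibitory adhesion receptor, had 20.5 and 53.1 CPM in Zbtb16+Bcl11b− and 5.3 and 3.87 CPM in Il1rl1+ cells and was lower by −3.66 ± 1.05 (0.039) as 1 of 5 tested in its list. Among the genes of signalling below these receptors, Lck, the kinase that phosphorylates CD28 and PD-1 tails, was lower by −2.18 ± 0.511 (0.00646) as 1 of 10. Lck was 163.4 and 200 CPM in Zbtb16+Bcl11b− cells and 36.1 and 47.3 CPM in Il1rl1+ cells. In G3SEKO Il1rl1+ cells, again the 1 sum of experiment 2 with the hashtag listed under WT, Lck was 320 CPM, beside the higher T-lineage and ILC progenitor markers of that sum given above, whose part was not tested, and its fitted log2 difference from WT was 2.83 ± 0.596 (0.00577, against 0.572% of all genes called), and the difference of this change from that of the Zbtb16+Bcl11b− class was 3.62 ± 0.795 (0.0202, against 0.227%). In the Ccr6+ class, which had 1 WT sum and so no replicate, Prkcq, which encodes protein kinase C theta, was called lower (adjusted p = 0.0387, against 1.12% of all genes called), with 1.56 CPM against 52.8 and 81.6 CPM in Zbtb16+Bcl11b− cells. None of the 4 genes tested of the nectin axis, the ligands of CD226, TIGIT and CD96 and related receptors, was called.

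Genes with a pattern most like that of each receptor over the 12 WT sums of classes with at least 5 cells in both experiments, which leaves out Ccr6+ cells, were named as a description, by Pearson's correlation of log2(CPM + 1), centred within each experiment, among 7861 genes with a mean of at least 20 CPM. These sums share libraries and depth. Pdcd1 was most like Tox2 (0.983), Gatad1 (0.973) and Cacna1e (0.969), where Tox2 encodes an HMG-box factor with 544.4 and 524 CPM in Zbtb16+Bcl11b− and 9.8 and 4.5 CPM in Il1rl1+ cells. Icos was most like Gclc (0.955), Mprip (0.941) and Il17rb (0.940). Pecam1 was most like Fsd1 (0.962) and Chst11 (0.955), Cd96 like Usp48 (0.949), and Cd226 like Cytip (0.953) and Pdcd4 (0.947).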

How the data were processed

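The authors deposited read counts per gene and cell of 2 TAS-Seq experiments, with a hashtag call in each cell name. Per the study's methods they were made with Cutadapt 3.4, Bowtie2 2.4.2 on GRCm38 and Ensembl annotation, and analysed in Seurat. No molecular identifiers were counted. Of the deposited columns, 0 belonged to unmapped samples.

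Cells past the minimum of reads per cell given in the study's methods for each experiment, with at most 10% mitochondrial reads, 1 hashtag call and Id2 at or above 1 on the scale ln(1 + reads per 10000) were kept. These were 681 WT and 43 G3SEKO cells, and 5130 WT and 1159 G3SEKO cells. Hashtag doublets were left out and no other caller was run. A gene without a row in an experiment was set to 0 there. Reads were summed per class, genotype and experiment, and sums of at least 5 cells were tested with edgeR 4.0.16 in R 4.3.3 (quasi-likelihood, TMM scaling, filterByExpr, terms for the group and the experiment, 9 residual degrees of freedom). Experiment is the replicate, with 2 per group at most, and its term pairs the genotypes, since both were processed in each experiment. Hashtags mark pools of mice, since the study used more mice than hashtags, so p-values measure the spread between these sums and not between mice. The floor for an absent gene was 3 reads, and 2 reads were added for ratios. Scripts were tested on simulated data.

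Alternatives were DESeq2 1.42.0, no filter, no experiment term, only the groups compared, other gates, hashtags called from hashtag reads and cells thinned to the lowest depth accepted in experiment 2, and 2 added after seeing the data. Named genes were the 10 receptors, the members of 5 pathway lists called in a comparison and the genes most alike (up to 3 for each receptor, with those of Cd28 not reported here). The members and lists were chosen with earlier results of these data known.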

Additional observations from a re-analysis of the deposited data

Results flagged for a closer look

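For 4 results the G3SEKO and WT sums differed in opposite directions in different classes, each in both experiments, with 2 reads added to each sum. Whether these directions differ was not tested. Cd28 was higher in G3SEKO Zbtb16+Bcl11b− cells, with log2 ratios of 1.82 and 0.37, and lower in Zbtb16+Bcl11b+ cells, with −6.96 and −1.54. The value of 1.82 rests on 1 cell and that of −6.96 on 4 reads in 9 G3SEKO cells. Lag3 was higher in G3SEKO Zbtb16−Bcl11b+ cells, with 0.96 from 2 reads against 4 and 3.72 with 78% of the reads in 1 cell, and lower in Zbtb16+Bcl11b+ cells, with −7.23 and −0.29.

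Cd96 was higher in G3SEKO Zbtb16−Bcl11b+ cells, with log2 ratios of 0.30 and 0.36. It was lower in Zbtb16+Bcl11b+ cells, with −1.77 and −1.88, and in Zbtb16+Bcl11b− cells it had ratios of −0.023 and −0.002, that is levels of 88 and 62.1 CPM against 89.4 and 62.2 CPM. The last pair of ratios is close to 0.

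For Pdcd1 the difference of the G3SEKO change between Il1rl1+ and Zbtb16+Bcl11b− cells passed the test on thinned cells, at 4.61 on the log2 scale, and it rests on the 49 G3SEKO Il1rl1+ cells of experiment 2, whose hashtag the label lists under WT.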

How the results depend on the processing

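The 10 receptors had 913 fitted values under the alternatives. Since none was called in the fit on all reads, no call could be lost, and 22 values were newly called, while 65 changed sign among values called neither way. Counts of all genes called moved far more, and the cause was not tested. In the class comparisons against WT Zbtb16+Bcl11b− cells, the Zbtb16+Bcl11b+ class gave 1 gene, 54 with DESeq2 and 3 on thinned cells. The Zbtb16−Bcl11b+ class gave 2, 187 with DESeq2, 87 thinned, 0 with only the groups compared, 14 in sums of at least 20 cells and 16 without the G3SEKO sums of experiment 2. The Il1rl1+ class gave 30, 387 with DESeq2, 16 without the replicate block, 49 with no limit on Id2, 342 thinned, 616 with only the groups compared, 143 in sums of at least 20 cells and 143 without the G3SEKO sums of experiment 2. The Ccr6+ class gave 14, 649 with DESeq2, 28 at a gate of 1.5, 133 thinned, 113 in sums of at least 20 cells and 121 without those G3SEKO sums. The Eomes+ class gave 0, 279 with DESeq2, 1 at a gate of 1.5, 27 thinned, 3 with only the groups compared, 1 in sums of at least 20 cells and 1 without those G3SEKO sums. For G3SEKO against WT the Zbtb16+Bcl11b− class gave 0, 26 with DESeq2 and 1362 without the G3SEKO sums of experiment 2, where 1 sum of 8 cells was left and assumed to vary like the other groups. The Zbtb16+Bcl11b+ class gave 0, 78 with DESeq2, 1 thinned and 627 without those sums. The Zbtb16−Bcl11b+ class gave 0, 39 with DESeq2, 7 thinned and 1119 without those sums. The Il1rl1+ class gave 1, 258 with DESeq2, 2 with no filter, 2 with no limit on Id2, 2 at a gate of 1.5, 0 with hashtags called from reads, 68 thinned and 10 in sums of at least 20 cells. The difference between the changes of both classes gave 0, 124 with DESeq2 and 27 thinned. With only the groups compared, the Ccr6+ class and G3SEKO against WT within Il1rl1+ cells could not be fitted, while the difference between the changes of both classes could and gave 0 genes, and G3SEKO Il1rl1+ cells had no sum without experiment 2. Among the receptors, Cd28 was called in G3SEKO Zbtb16+Bcl11b+ cells when the G3SEKO sums of experiment 2 were left out, and Pdcd1 was called in WT Il1rl1+ cells in 5 of the alternatives with another tool, cells or sums. Of 384 shares of cells compared, 31 lay outside the interval of the main share. Sums of 8 to 10 G3SEKO cells in experiment 1 limit what can be said there.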

Other observations

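Ccr6+ and Eomes+ cells of G3SEKO mice were summed in experiment 2 only, and genotypes were not tested against each other in these classes. Lag3 and Btla had a higher level in the Ccr6+ sum than in any other G3SEKO sum. In 107 G3SEKO Ccr6+ cells, Lag3 was 53.7 CPM with 11 cells holding a read, against 8.3 CPM in 38 WT Ccr6+ cells with 3 such cells. Btla was 50.9 CPM in G3SEKO Ccr6+ cells, where 13 of 107 held a read, and no read was found in the 38 WT cells. Experiment 1 held 2 WT Ccr6+ cells, too few to sum, of which 1 held 869 Lag3 reads and 1 held 377 Btla reads, so both genes were also found in WT Ccr6+ cells. Ctla4 was 6.15 CPM from 2 cells, against 0 CPM in WT. Cd226 was 197.9 against 158.3 CPM and Icos 178.1 against 84.6 CPM. In 42 G3SEKO Eomes+ cells of experiment 2 Cd28 was 8.19 CPM, against 201.3 CPM in 25 WT cells, and Cd226 was 294.6 against 154.2 CPM. The 4 G3SEKO Eomes+ cells of experiment 1, too few to sum, had 95.3 CPM of Cd28, from 2 cells, against 115.6 CPM in WT. Markers of NK cells and ILC1s summed to 2228 CPM in G3SEKO Eomes+ cells of experiment 2 against 1075 CPM in WT. Btla with 17.4 CPM and Ctla4 with 16.4 CPM came from 1 cell each in that class. None of these differences was tested.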
